A study of Mus musculus and Homo sapiens with 9 samples.

Results

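The extracellular matrix genes described here were the collagen chains, the laminin chains and the ADAMTS proteases: every protein-coding gene whose symbol was COL with a number, A and a number, LAM with A, B or C and a number, or ADAMTS with a number. The rule found 74 of 21938 protein-coding genes in mouse (44 collagens, 11 laminins and 19 ADAMTS) and 75 of 20033 in human (44 collagens, 12 laminins and 19 ADAMTS). 73 symbols were found in both species, COL6A4 in mouse alone, and COL21A1 and LAMB4 in human alone. The rule reads symbols alone, but the 3 families were picked with earlier results of these data known.

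CUT&Tag, in which an antibody brings a transposase to its target so that nearby DNA is cut and sequenced, was run in 9 libraries with 1 library per group and no replicates. Of the 5 libraries from mouse embryonic fibroblasts (MEFs), 4 used S9.6, an antibody against DNA-RNA hybrids, in Mcm8 wildtype (WT), Mcm8 knockout (KO), shControl and shDdx5 (Ddx5 knockdown) cells, and the fifth was wildtype with no primary antibody. The other 4 were wildtype HEK293 cells, a human embryonic kidney line, with mouse IgG, with anti-FLAG after transfection of a FLAG-MCM8 plasmid, with S9.6, and with S9.6 after transfection of a plasmid labelled RNH1, the study's name for RNase H1. By the study's methods the MEFs came from E13.5 embryos of heterozygous matings and were immortalised with SV40 large T antigen, and the knockdown was delivered by adenovirus. MCM8 is a helicase of the MCM family, and DDX5 is an RNA helicase that unwinds R-loops. The lists held 4314 to 12259 peaks in MEFs and 12497 to 17178 in HEK293 cells. With 1 library per group no test between conditions was possible, and every interval covers counting error only.

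Collagens are triple-helical proteins that are exported as procollagens, trimmed by proteases and assembled into fibrils, networks or beaded filaments. Laminins are trimers of an α, a β and a γ chain that form the sheet of basement membranes. ADAMTS enzymes are secreted metalloproteases, of which some remove the N-propeptides of procollagens and others cut aggrecan and versican. Fibroblasts are the main makers of fibrillar collagen, and an R-loop, a DNA-RNA hybrid with its displaced DNA strand, forms as a gene is transcribed, often near its start.

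In each of the 4 S9.6 MEF lists the strongest peak over a matrix gene lay just upstream of the 5′ end of the laminin γ1 gene Lamc1. The collagen VI genes Col6a1, Col6a2 and Col6a3 had a peak at the 5′ end in shDdx5 and in no other MEF list. So did the fibrillar chain Col5a1 and the procollagen protease Adamts2. None of these collagen VI peaks reached an adjusted significance (q) of 0.05. Peaks inside collagen VI genes were also listed in WT, in shControl and with no antibody. Of the matrix genes 13.5% had a promoter peak in shDdx5 and not in shControl, beside 13.3% of all genes. The most abundant fibroblast collagens, Col1a1, Col1a2 and Col3a1, had no peak at all in any MEF list. They are short for matrix genes, at 16.8 to 38.2 kb against a median of 114 kb, and the part of length was not tested. In HEK293 cells the strongest peaks over these genes, in ADAMTS10, ADAMTS3, COL5A1, COL4A2 and COL18A1, were also in the IgG list.

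The sequences around 9 summits of matrix genes are shown, chosen from sites named above or below. Windows that touched an annotated UTR were left out, which removed Col6a2 and Adamts1 of shDdx5 and LAMC1 of FLAG-MCM8. Each sequence shown is 101 bp centred on the summit and written 5′ to 3′ on the strand of the gene. The reference was mm10 for mouse symbols and hg38 for human ones. Capitals mark runs of at least 3 G (motif GGG, searched on the gene strand alone), since G-rich RNA is a known feature of R-loops. The first 6 come from the shDdx5 list: Lamc1 at chr1:153333176-153333276 (minus strand), Adamts10 at chr17:33524959-33525059 (plus), Col5a1 at chr2:27886168-27886268 (plus), Col6a1 at chr10:76725755-76725855 (minus), Col6a3 at chr1:90843088-90843188 (minus) and Adamts2 at chr11:50601903-50602003 (plus). The last 3 come from the HEK293 S9.6 list: LAMB2 at chr3:49132642-49132742, COL5A3 at chr19:9969331-9969431 and ADAMTS10 at chr19:8592289-8592389, all on the minus strand.
Lamc1: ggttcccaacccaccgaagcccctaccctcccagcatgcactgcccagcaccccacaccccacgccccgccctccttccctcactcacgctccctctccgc
Adamts10: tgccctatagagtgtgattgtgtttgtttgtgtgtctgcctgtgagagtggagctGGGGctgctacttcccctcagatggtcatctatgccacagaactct
Col5a1: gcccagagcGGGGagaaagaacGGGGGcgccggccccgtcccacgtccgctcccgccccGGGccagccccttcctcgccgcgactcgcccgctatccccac
Col6a1: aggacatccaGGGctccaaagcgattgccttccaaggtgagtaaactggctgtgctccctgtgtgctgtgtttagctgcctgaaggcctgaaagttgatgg
Col6a3: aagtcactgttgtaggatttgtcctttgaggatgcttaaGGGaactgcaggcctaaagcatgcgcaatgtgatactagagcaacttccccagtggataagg
Adamts2: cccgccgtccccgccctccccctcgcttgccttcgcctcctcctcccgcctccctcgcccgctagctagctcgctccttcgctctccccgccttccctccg
LAMB2: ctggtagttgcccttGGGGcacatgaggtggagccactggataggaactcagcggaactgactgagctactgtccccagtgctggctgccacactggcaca
COL5A3: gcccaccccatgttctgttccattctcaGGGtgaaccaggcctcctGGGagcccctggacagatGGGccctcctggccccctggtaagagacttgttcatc
ADAMTS10: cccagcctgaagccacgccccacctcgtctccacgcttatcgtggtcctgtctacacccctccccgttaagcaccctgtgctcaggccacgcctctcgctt

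These windows did not look alike. Lamc1 and Adamts2 were rich in C on the gene strand, with a GC skew, (G − C)/(G + C), of -0.66 and -0.61, and held no run of G. The Col5a1 window had a GC content of 78.2% and 3 runs of G, whereas the windows inside Col6a1 and Col6a3 had GC contents of 53.5% and 46.5% and 1 run each. A run of at least 3 G was found in 8 of 9 windows at matrix genes in WT, 6 of 6 in KO and 11 of 11 in shControl, where 87.1%, 86% and 86.9% of windows of the same length at all promoter peaks held one. In shDdx5 it was found in 11 of 14 (78.6%, against 88.1% of 4731 windows), in HEK293 S9.6 in 14 of 17 (82.4%, against 89.6% of 5689) and in RNH1 in 6 of 9 (66.7%, against 89.3%). Median GC content at the summits of matrix genes was below that of all promoter peaks in 5 of the 6 S9.6 lists: 53.5% against 63.4% in WT, 56.4% against 63.4% in KO, 57.4% against 62.4% in shControl, 61.4% against 65.3% in HEK293 S9.6 and 64.4% against 65.3% in RNH1. The exception was shDdx5, with 66.3% against 64.4%. Many matrix peaks were at internal starts. A peak at the outermost 5′ end was found in 5 of 9 listed matrix genes in WT, 3 of 5 in KO, 4 of 11 in shControl and 10 of 14 in shDdx5. In HEK293 cells this was 7 of 15 with S9.6 and 1 of 8 with RNH1. Of all genes, 11.3% had a promoter peak in WT and 9.23% had one at the 5′ end. The part of peak position in the GC contents was not tested.

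A gene was counted as having a promoter peak when the midpoint of a peak lay within 1 kb of the start of any of its annotated transcripts. Matrix genes are long, with a median of 114 kb in mouse and 128 kb in human against 17.4 and 27.5 kb over all protein-coding genes. They also have more separate annotated starts, a median of 4 against 3 in mouse and 7 against 5 in human. Counts at the outermost 5′ end of each gene are therefore given as well.

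Among the 74 mouse genes, 9 had a promoter peak in WT (12.2%, 95% Wilson interval 6.53 to 21.5), where 11.3% of all protein-coding genes had one. KO listed 5 (6.76%, 2.92 to 14.9), against 16% of all genes. The shControl list held 11 (14.9%, 8.51 to 24.7) against 14.7%, and shDdx5 held 14 (18.9%, 11.6 to 29.3) against 23.1%. With no antibody there were 2 (2.70%, 0.744 to 9.33), Col15a1 and Col9a3, against 1.24%. Among the MEF lists, KO was the one in which the share of all genes lay outside the interval of the matrix genes.

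Among the 75 human genes, IgG listed 7 (9.33%, 4.59 to 18) against 5.59% of all genes, and FLAG-MCM8 listed 17 (22.7%, 14.7 to 33.3) against 12%. HEK293 S9.6 listed 15 (20%, 12.5 to 30.4) against 30.1%, and RNH1 listed 8 (10.7%, 5.50 to 19.7) against 24.6%. The share of all genes lay below the interval of the matrix genes in FLAG-MCM8, inside it in IgG and HEK293 S9.6, and above it in RNH1.

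**Figure D1:**
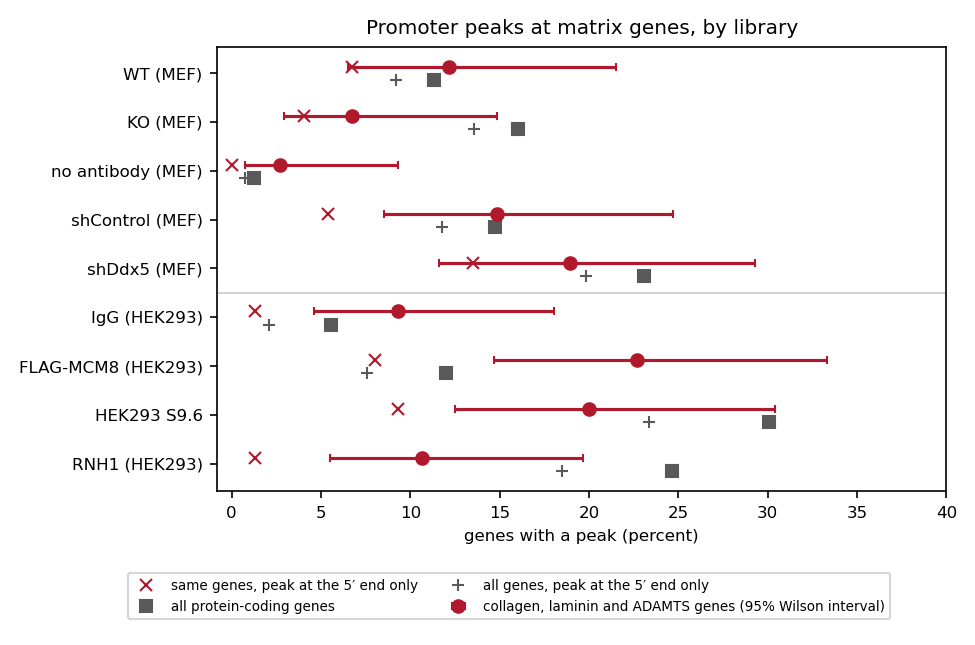
Percent of genes with a promoter peak in each of the 9 libraries (x axis): red circles are the collagen, laminin and ADAMTS genes with 95% Wilson bars, grey squares all protein-coding genes, and crosses and plus signs the same counted at the outermost 5′ end alone. KO and RNH1 have grey squares to the right of the red bars (16% and 24.6%), and FLAG-MCM8 has its square to the left (12%).

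Many of these peaks were not at the start of the gene. At the outermost 5′ end there were 5 matrix genes in WT, 3 in KO, 0 with no antibody, 4 in shControl and 10 in shDdx5, beside 9.23%, 13.5%, 0.761%, 11.8% and 19.8% of all genes. In HEK293 cells there were 6 with FLAG-MCM8 and 7 with S9.6, and 1 each for RNH1 and IgG, beside 7.56%, 23.3%, 18.5% and 2.09% of all genes in the same order. The others lay at annotated starts inside the gene: the ADAMTS10 peak of HEK293 S9.6 was 18340 bp from the 5′ end, and the COL4A2 peak was 204788 bp from it. In FLAG-MCM8, 11 of 17 matrix genes with a promoter peak had it at such an internal start alone.

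**Figure D2:**
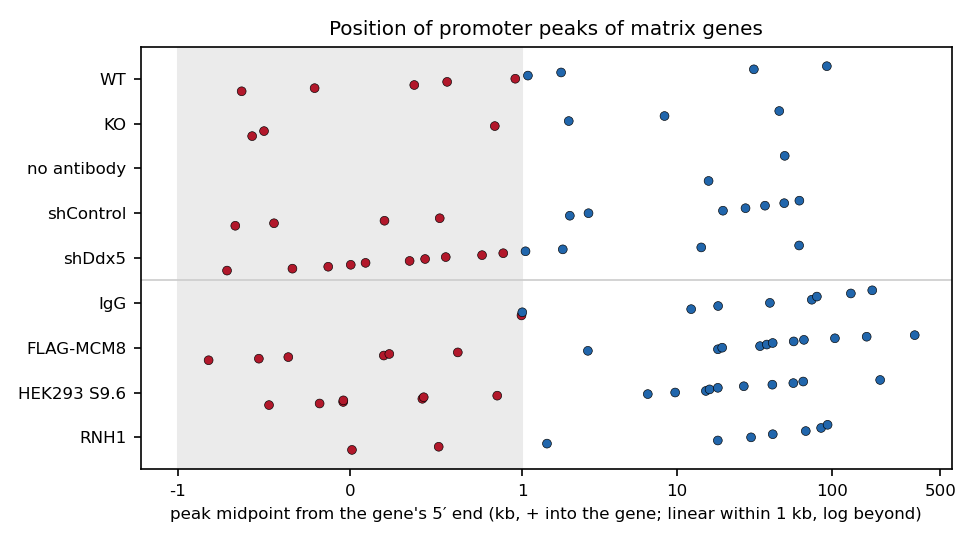
Distance in kb of the midpoint of each promoter peak of a collagen, laminin or ADAMTS gene from the outermost 5′ end of that gene (x axis, positive into the gene, linear within 1 kb and logarithmic beyond), by library. Red points in the grey band lie within 1 kb of the 5′ end, and blue points lie at other annotated starts; shDdx5 has the most red points, at 10 genes.

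Lamc1 encodes the γ1 chain shared by most laminins. Fold below is the authors' enrichment at the summit over the local background, −log10 q is their significance adjusted over the list, and the number of fragments at the summit was recovered from fold and p. The promoter peak of Lamc1 had a fold of 4.51 in WT, with 14 fragments, and of 5.61 in KO, with 19 fragments. In shControl the fold was 5.52 with 18 fragments, and in shDdx5 5.28 with 23 fragments. The no-antibody list had no peak at Lamc1. In each of the 4 S9.6 lists this was the strongest peak over any matrix gene, with a −log10 q of 2.89 (WT), 6.24 (KO), 5.58 (shControl) and 7.39 (shDdx5). The midpoints lay 206 to 500 bp upstream of the 5′ end, the peak was 518 bp wide in WT and 1342 bp wide in shDdx5, and all 4 overlapped one another. Lamc1 was the one matrix gene with a promoter peak in all 4 lists, where 4.19% of all genes had one, and 3 were in at least 3 lists (Lamc1, Adamts1 and Adamts10) against 9.29%.

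The other laminin chains were each in a subset of the lists. Lamb2, the β2 chain of muscle and kidney basement membranes, had a 5′ peak in KO (fold 3.05, −log10 q 0.750) and in shDdx5 (fold 3.92, −log10 q 2.64) and in neither control list. Lama3, the α3 chain of epithelial laminins, had one in WT (fold 4.0, −log10 q 1.46) and in shControl (fold 4.09, −log10 q 1.43) and in neither list of the depleted cells. Lamb2 and Lama3 thus had opposite patterns over the same 4 libraries, with peaks of 9 to 14 fragments. The γ3 chain gene Lamc3 was in shControl alone, at an internal start 36966 bp into the gene.

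Collagen VI forms beaded filaments around cells, built from the chains of Col6a1, Col6a2 and Col6a3. In shDdx5 these 3 of the 6 collagen VI genes had a peak at the 5′ end, beside 19.8% of all genes. In WT, KO, shControl and the no-antibody list 0 of 6 did, beside 9.23%, 13.5%, 11.8% and 0.761%. The fold was 2.99 at Col6a1 with 13 fragments, 3.42 at Col6a2 with 9 fragments and 2.93 at Col6a3 with 8 fragments. These are weak peaks: their −log10 q was 1.18, 1.15 and 0.576, and none reached a q of 0.05, which is a −log10 q of 1.30. The midpoints lay 346, 436 and 767 bp into the gene, with the summit in an intron for Col6a1 and Col6a3 and in the 5′ UTR for Col6a2.

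Of the fibrillar chains, Col5a1, which regulates the diameter of collagen fibrils, had a peak in shDdx5 whose midpoint was 4 bp from the 5′ end (fold 3.23, 18 fragments, −log10 q 2.24). That peak also lay within 1 kb of a start of the neighbouring gene 2810430I11Rik. Col27a1, a chain of cartilage, had a 5′ peak in WT (fold 2.80, −log10 q 0.410) and another peak at a start 19788 bp into the gene in shControl (fold 3.14, −log10 q 0.615). No other of the 11 fibrillar collagen genes had a promoter peak in an MEF list. Col1a1, Col1a2 and Col3a1 were among the 11 mouse matrix genes with no peak at a promoter or over the gene body in any of the 5 MEF lists, together with Col2a1, Col4a3, Col9a1, Col10a1, Col11a1, Adamts4, Adamts5 and Adamts8. The share of all genes without any peak is not given here. Col1a1, Col1a2 and Col3a1 span 16.8, 36.7 and 38.2 kb, while Col6a1 and Col6a2, with a peak in shDdx5, span 17.4 and 27.9 kb. The part of gene length in the absence of peaks was not tested.

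The basement membrane chains Col4a1 and Col4a2, which are transcribed away from each other from a common start region, had no peak at that region in any list of either species. Col4a2 had a WT peak at an internal start 92693 bp into the gene (fold 3.02, −log10 q 0.583). Among the FACIT collagens, which sit on the surface of fibrils, Col14a1 had a 5′ peak in WT (fold 3.08, 7 fragments) and in shDdx5 (fold 3.70, 11 fragments), and these peaks overlapped. Col9a2 and Col16a1 were in WT alone and Col12a1 in shDdx5 alone, the last with a midpoint 1051 bp from the 5′ end. The network collagen Col8a2 had a shDdx5 peak at an internal start (fold 3.89, −log10 q 2.78).

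Among the ADAMTS genes, Adamts1, a protease of aggrecan and versican, had a peak 1829 to 2031 bp into the gene in KO (fold 3.40), shControl (fold 3.99) and shDdx5 (fold 4.52) and none in WT. These 3 peaks overlapped. Adamts10, a microfibril-associated member, had a peak near its 5′ end in the same 3 lists (folds 2.70, 3.79 and 3.70) and a second in KO 8299 bp into the gene (fold 4.75, −log10 q 2.51). Adamts20 had a peak at an internal start in shControl (fold 3.27, 7 fragments) and at the same place in shDdx5 (fold 5.27, 15 fragments). Adamts2, the main procollagen N-proteinase, had a shDdx5 peak 127 bp upstream of its 5′ end (fold 3.53, −log10 q 1.29, just short of a q of 0.05), which was also in reach of a start of Gm12198.

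**Figure D3:**
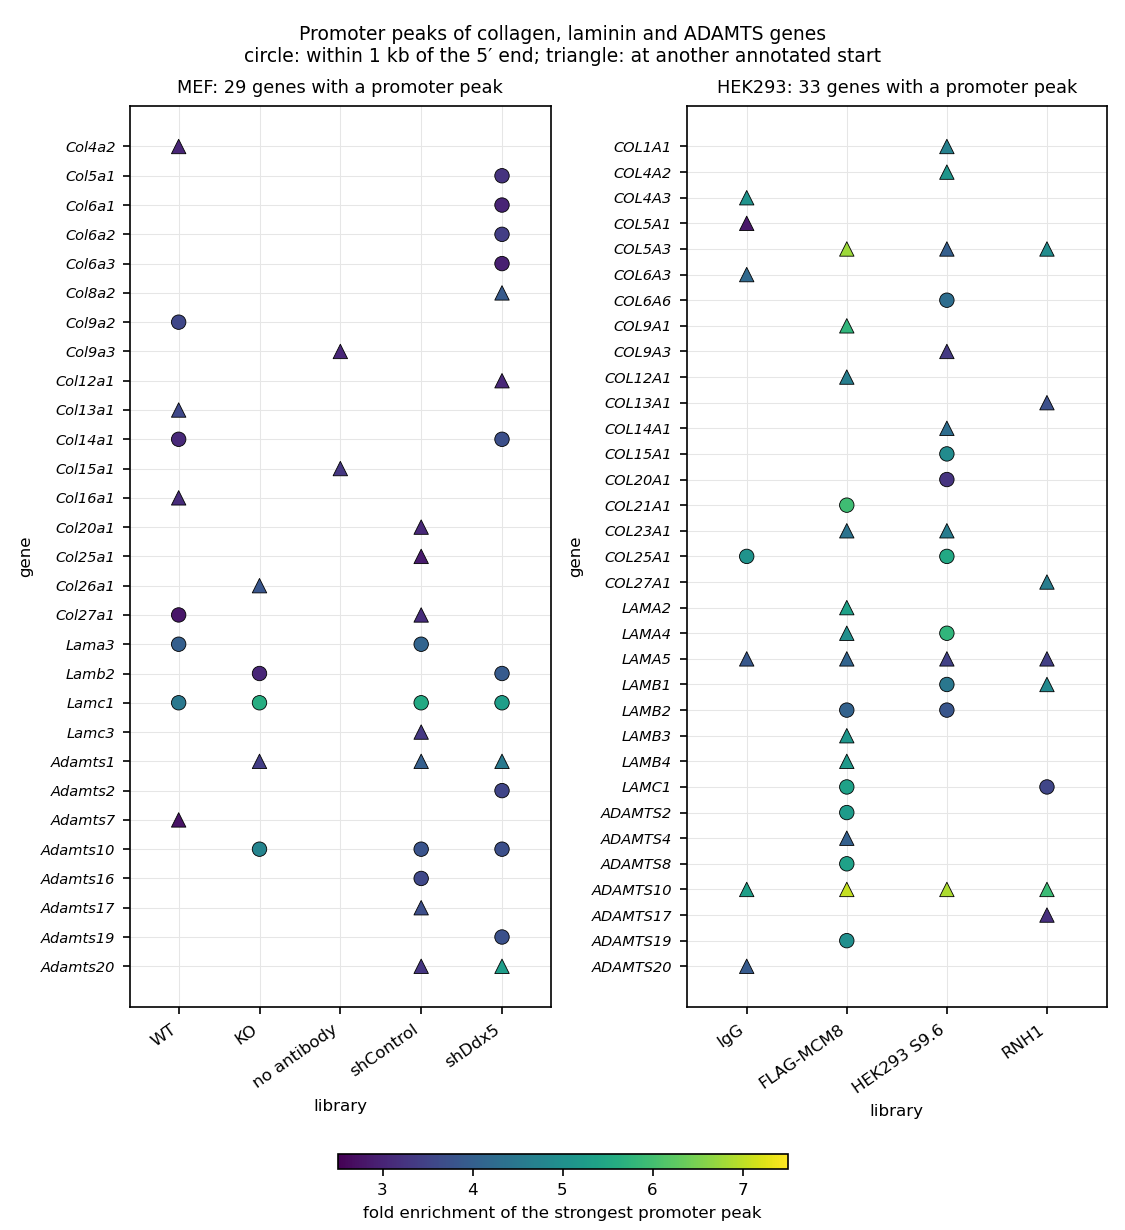
Promoter peaks of the 29 mouse and 33 human collagen, laminin and ADAMTS genes that had one in at least 1 list (rows), by library (columns); circles have a peak within 1 kb of the outermost 5′ end, triangles at another annotated start alone, and colour gives the fold enrichment of the strongest promoter peak in that library. Lamc1 fills all 4 S9.6 columns of the MEF panel, Col6a1, Col6a2 and Col6a3 are in the shDdx5 column alone, and ADAMTS10 and LAMA5 fill all 4 HEK293 columns including IgG.

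KO was compared with WT to ask whether loss of MCM8 changed R-loops at these genes. KO had 5 genes with a promoter peak and WT 9, a difference of -5.41 percentage points (95% interval -15.5 to 4.46), while all protein-coding genes differed by 4.71 points. Lamc1 was in both lists (6.66% of all genes were), 4 genes were in KO and not in WT (Adamts1, Adamts10, Col26a1 and Lamb2; 9.38% of all genes), and 8 were in WT and not in KO (Adamts7, Col13a1, Col14a1, Col16a1, Col27a1, Col4a2, Col9a2 and Lama3; 4.66%). Of the 9 WT promoter peaks, 2 reached a q of 0.05, those of Lamc1 and Lama3, and of the 6 KO peaks 3 did. The difference did not keep its sign: with peaks of a q of 0.05 or lower KO had 3 genes and WT 2, and with a window of 3 kb KO had 14 and WT 13. The KO library had 0.883 of the depth of WT, as recovered from the peaks, and the part of depth in these counts was not tested.

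Both counts moved with the window. At 500 bp WT had 3 matrix genes and KO 2 (4.05% and 2.70%, against 10.0% and 14.4% of all genes), and at 3 kb WT had 13 and KO 14 (17.6% and 18.9%, against 13.9% and 19.2%). The closest gene outside 1 kb was Adamts9 in WT, at 1800 bp, and Col27a1 in KO, at 1107 bp. Just inside the window were Adamts7 in WT, at 932 bp, and Col26a1 in KO, at 785 bp.

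The shDdx5 list was compared with shControl to ask the same of the helicase DDX5. It had 14 genes with a promoter peak against 11, a difference of 4.05 points (-8.19 to 16.2), beside 8.36 points over all genes. Adamts1, Adamts10, Adamts20 and Lamc1 were in both (9.77% of all genes). In shDdx5 and not in shControl were 10 genes (13.5% of the matrix genes, 13.3% of all genes): Adamts2, Adamts19, Col5a1, Col6a1, Col6a2, Col6a3, Col8a2, Col12a1, Col14a1 and Lamb2. In shControl and not in shDdx5 were 7 (9.46% against 4.97%): Adamts16, Adamts17, Col20a1, Col25a1, Col27a1, Lama3 and Lamc3. At the outermost 5′ end the counts were 10 and 4, a difference of 8.11 points (-1.64 to 18.3) beside 8.09 over all genes. Both differences had intervals that included 0 and both were close to or below those of all genes.

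A list of 16 matrix genes that fibroblasts make in quantity was chosen with earlier results of these data known. In shDdx5 7 of 16 had a promoter peak (Adamts1, Adamts2, Col5a1, Col6a1, Col6a2, Col6a3 and Lamc1; 43.8%, against 23.1% of all genes), 6 of them at the 5′ end. In WT, KO and shControl 2 of 16 each did (12.5%, against 11.3%, 16% and 14.7%), and with no antibody 0 of 16 (against 1.24%). In HEK293 cells the human genes of this list had 2 of 16 in IgG (COL5A1 and COL6A3), 3 in FLAG-MCM8 (ADAMTS2, LAMA4 and LAMC1), 4 in S9.6 (COL1A1, COL4A2, LAMA4 and LAMB1) and 2 in RNH1 (LAMB1 and LAMC1). Over all genes the shares of these HEK293 lists were 5.59%, 12%, 30.1% and 24.6%. The difference between lists was not tested.

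In HEK293 cells, FLAG-MCM8 was compared with IgG to ask where the tagged protein was found. FLAG-MCM8 listed 17 genes and IgG 7, a difference of 13.3 points (1.51 to 25), beside 6.42 points over all genes. 15 genes were in FLAG-MCM8 and not in IgG (20% of the matrix genes, 10.8% of all genes): ADAMTS2, ADAMTS4, ADAMTS8, ADAMTS19, COL5A3, COL9A1, COL12A1, COL21A1, COL23A1, LAMA2, LAMA4, LAMB2, LAMB3, LAMB4 and LAMC1. 5 were in IgG and not in FLAG-MCM8 (ADAMTS20, COL4A3, COL5A1, COL6A3 and COL25A1; 4.33%), and ADAMTS10 and LAMA5 were in both (1.25%). At the outermost 5′ end FLAG-MCM8 listed 6 and IgG 1, and this difference of 6.67 points had an interval that included 0 (-0.575 to 15.1; 5.48 over all genes). The IgG library was the deeper one, with a depth ratio of FLAG-MCM8 to IgG of 0.761, whose part in the counts was not tested.

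The 6 genes with FLAG-MCM8 at the 5′ end were ADAMTS2, ADAMTS8, ADAMTS19, COL21A1, LAMB2 and LAMC1. LAMC1 had a peak 196 bp into the gene (fold 5.33, 14 fragments, −log10 q 5.36), and in RNH1 had 2 peaks there, 11 and 515 bp into the gene (folds 3.54 and 3.51), but HEK293 S9.6 had none. LAMB2 had a FLAG-MCM8 peak 228 bp into the gene (fold 4.06) that overlapped an S9.6 peak (fold 3.54), and RNH1 had none. Of the 6, ADAMTS2, ADAMTS19, LAMB2 and LAMC1 have mouse counterparts with a 5′ peak in at least 1 S9.6 MEF list. Adamts8 had none, and COL21A1 was found in human alone. Such a peak was found at 14 of the 74 mouse matrix genes and at 6197 of all 21938 mouse protein-coding genes.

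RNH1 was compared with S9.6 alone in HEK293 cells; RNase H1 degrades the RNA of DNA-RNA hybrids. RNH1 listed 8 genes and S9.6 15, a difference of -9.33 points (-21.0 to 2.37), beside -5.43 over all genes. At the outermost 5′ end the counts were 1 (LAMC1) and 7 (COL6A6, COL15A1, COL20A1, COL25A1, LAMA4, LAMB1 and LAMB2), a difference of -8.00 points (-16.8 to -0.479) beside -4.85 over all genes. Over all annotated starts, 11 genes were in S9.6 and not in RNH1 (12.6% of all genes), 4 in RNH1 and not in S9.6 (ADAMTS17, COL13A1, COL27A1 and LAMC1; 7.18%) and 4 in both (ADAMTS10, COL5A3, LAMA5 and LAMB1; 17.5%). ADAMTS10, COL5A3 and LAMA5 were in FLAG-MCM8, S9.6 and RNH1 (5.81% of all genes).

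These 3 genes differed in what else covered them. The ADAMTS10 peak, in an intron at about the same place in every list, had a fold of 7.05 in FLAG-MCM8, 6.89 in S9.6, 5.90 in RNH1 and 5.30 in IgG, and all 4 peaks overlapped. LAMA5 had peaks at different starts: that of IgG was 39759 bp into the gene, those of FLAG-MCM8 and S9.6 were 56640 and 56311 bp into it, and that of RNH1 was 30055 bp into it. COL5A3, the α3 chain of collagen V, had peaks 41235 to 41496 bp into the gene in the 3 lists (folds 6.77, 3.99 and 4.91) and none in IgG. Of the 3, COL5A3 was thus the one with a site shared by all 3 antibody lists and absent from IgG.

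Fibroblasts and HEK293 cells were set side by side with a caution, since the MEF lists reach down to a p of 0.001 and those of HEK293 cells stop at 1e-05. Of the 73 genes found in both species, 9 had a promoter peak in WT MEFs and 15 in HEK293 S9.6, a difference of -8.22 points (-20.3 to 3.98), beside -18.7 points over all genes of each species. With a p of 1e-05 or lower in both lists the counts were 2 and 15. Taking the same number of the strongest peaks from both gave 9 and 7, so the direction turned with the way the lists were made comparable. Over the 4 S9.6 MEF lists together 27 of the 74 mouse genes had a promoter peak in at least 1 (36.5%, against 33.9% of all genes), and over the 3 antibody lists of HEK293 cells 29 of 75 did (38.7%, against 40.6%).

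ADAMTS10, COL4A2, COL14A1, COL20A1, COL25A1 and LAMB2 had a promoter peak both in some S9.6 MEF list and in HEK293 S9.6. This is 22.2% of the 27 genes listed in MEFs, where 20.5% of all 73 were in HEK293 S9.6, and 40% of the 15 listed in HEK293 S9.6, where 37% of the 73 were in MEFs. At the outermost 5′ end LAMB2 alone was shared, 1 of 14 (7.14%, beside 9.59% of the 73) and 1 of 7 (14.3%, beside 19.2%). The overlap was thus close to the share of matrix genes listed in the other cell type. COL1A1, which had no MEF peak, had a HEK293 S9.6 peak 15347 bp from its 5′ end, near the 3′ side of the gene (fold 4.68, −log10 q 8.69).

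Peaks were also counted over whole gene bodies, promoter peaks included, and given per Mb of gene. In WT 27 peaks overlapped them (2.88 per Mb of gene, against 4.14 over all protein-coding genes), in KO 42 (4.47 against 6.0), in shControl 53 (5.65 against 7.07) and in shDdx5 43 (4.58 against 7.69). With no antibody there were 28 (2.98 against 1.88). In HEK293 cells there were 84 in IgG (7.35 against 6.19), 63 in FLAG-MCM8 (5.51 against 5.45), 67 in S9.6 (5.86 against 7.78) and 47 in RNH1 (4.11 against 6.41). The rate of all genes lay above the exact 95% Poisson interval of the matrix genes in shDdx5 (3.32 to 6.17), HEK293 S9.6 (4.54 to 7.45) and RNH1 (3.02 to 5.47), and below it with no antibody (1.98 to 4.31). In WT (1.90 to 4.19), KO (3.22 to 6.05), shControl (4.23 to 7.39), IgG (5.86 to 9.1) and FLAG-MCM8 (4.24 to 7.05) it lay inside the interval. Of these peaks, 74.4% (shDdx5) to 96.2% (shControl) had their summit in an intron. Not at a promoter of a matrix gene were 30 of the 43 in shDdx5 and 52 of the 67 in HEK293 S9.6. The 74 mouse matrix genes cover 9.39 Mb and all 21938 mouse genes 1040 Mb, so the matrix genes lie fewer to the Mb. The part of promoter peaks in the difference between the rates was not tested.

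Counted as genes with at least 1 body peak, the matrix genes had a higher share than all genes in 8 of the 9 lists, RNH1 being the exception; this count is not corrected for their greater length. In WT 27.0% of matrix genes had a body peak against 16.9% of all genes, in KO 36.5% against 23%, with no antibody 29.7% against 7.51%, in shControl 44.6% against 24.7% and in shDdx5 45.9% against 29.4%. In IgG it was 52.0% against 25.4%, in FLAG-MCM8 48% against 25.9%, in HEK293 S9.6 48% against 39.2% and in RNH1 32.0% against 33%.

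**Figure D4:**
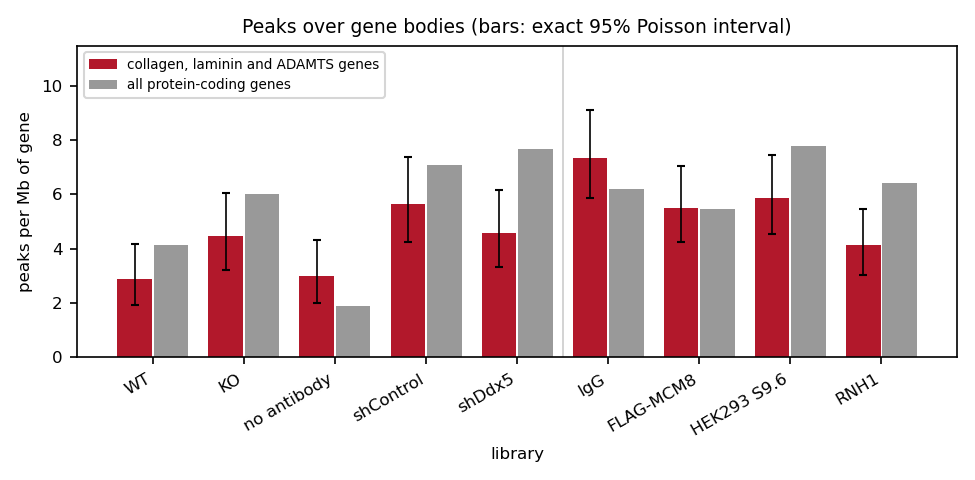
Peaks per Mb of gene body, promoter peaks included, in each library (y axis) for the collagen, laminin and ADAMTS genes (red, with exact 95% Poisson bars for counting error) and for all protein-coding genes (grey). The red bar is the taller one in the no-antibody and IgG libraries (2.98 and 7.35 peaks per Mb) and slightly so in FLAG-MCM8 (5.51 against 5.45). It is the shorter one in every S9.6 library, with the grey bar inside the red interval in WT, KO and shControl.

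The ratio of body peaks was 1.56 for KO over WT (95% interval 0.959 to 2.52; 1.45 over all genes) and 0.811 for shDdx5 over shControl (0.543 to 1.21; 1.09). It was 0.750 for FLAG-MCM8 over IgG (0.541 to 1.04; 0.880) and 0.701 for RNH1 over S9.6 (0.483 to 1.02; 0.824). All 4 intervals included 1 and the ratio over all genes. With peaks of a q of 0.05 or lower, KO over WT was 3.25, from 13 and 4 peaks, and shDdx5 over shControl was 1.77, from 23 and 13 peaks, so the direction of the latter turned.

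Single genes had few body peaks. The most in a MEF list were 4, over the transmembrane collagen Col23a1 in KO and in shControl, over Col27a1 in shControl and over Adamts17 with no antibody. None of the Col23a1 peaks of KO, shControl and shDdx5 overlapped a peak of another list. Recurrent intronic sites were found in Lamc1, 31813 to 32433 bp into the gene in WT, KO and shControl, in the laminin α2 gene Lama2, 511537 to 511695 bp into the gene in WT, KO and shControl, and in Adamts9, 1691 to 1906 bp into the gene in WT, shControl and shDdx5. Of the 42 KO body peaks 2 overlapped a WT peak (4.76%, 1.32 to 15.8), against 16.5% of all KO peaks, and of the 43 shDdx5 peaks 5 overlapped a shControl peak (11.6%, 5.07 to 24.5), against 20.2%. Here too all peaks of a list include promoter and intergenic ones, so the sets differ in kind of site.

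In HEK293 cells the strongest sites over matrix genes were shared with IgG. The numbers in the names of HEK293 peaks had gaps (9.92% to 13.7% of them), so an absent peak can be one that was not analysed here. COL18A1, the source of endostatin, had an intronic peak 95556 to 95624 bp into the gene in S9.6 (fold 7.04, 61 fragments), in RNH1 (fold 7.94, 75 fragments) and in IgG (fold 4.52, 28 fragments). ADAMTS3, a procollagen N-proteinase, had one 168656 to 168995 bp into the gene in S9.6 (fold 10.5), FLAG-MCM8 (fold 9.12), RNH1 (fold 6.49) and IgG (fold 6.68). All 5 of the strongest peaks at promoters or over bodies of matrix genes in S9.6, and all 5 in RNH1, overlapped an IgG peak, as did 3 of 5 in FLAG-MCM8. Of all 67 S9.6 body peaks 12 did (17.9%, 10.6 to 28.7), against 5.49% of all S9.6 peaks, and of the 47 RNH1 peaks 8 did (17%, 8.89 to 30.1), against 6.63%. The shares of all peaks cover every kind of site, not body peaks alone. In MEFs 0 of 27 WT, 2 of 42 KO, 0 of 53 shControl and 0 of 43 shDdx5 body peaks overlapped a no-antibody peak. Over all peaks of these lists the shares were as low, at 1.23%, 1.15%, 0.832% and 1.06% in the same order. The no-antibody library had 0.111 of the depth of WT.

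The genes that fold, trim and crosslink collagen are given beside the matrix genes, from a list of 27. Their promoter counts were 5 in WT, 6 in KO, 0 with no antibody, 10 in shControl and 14 in shDdx5, and 1 in IgG, 5 in FLAG-MCM8, 11 in HEK293 S9.6 and 13 in RNH1. P4ha1, a subunit of the prolyl hydroxylase that stabilises the triple helix, was in all 4 S9.6 MEF lists and P4HA1 in both HEK293 S9.6 lists. In shDdx5 the 14 included the crosslinking enzymes Lox and Loxl4 and the collagen chaperone Serpinh1, all at the 5′ end. Loxl4 had a 5′ peak in shControl too, and Serpinh1 had one in KO. As shares these were 18.5%, 22.2%, 0%, 37% and 51.9% in the MEF lists, against 11.3%, 16%, 1.24%, 14.7% and 23.1% of all genes. In HEK293 cells they were 3.70%, 18.5%, 40.7% and 48.1%, against 5.59%, 12%, 30.1% and 24.6%. This share was above that of the matrix genes in WT, KO, shControl, shDdx5, HEK293 S9.6 and RNH1 and below it with no antibody, in IgG and in FLAG-MCM8. The gene set, like those in the next paragraph, was picked with values of these data known.

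Basement membrane partners and receptors had counts of 3, 1, 0, 3 and 4 of 16 in WT, KO, no antibody, shControl and shDdx5, with the nidogen gene Nid2, which links laminin to collagen IV, in WT, KO and shControl. As shares these were 18.8%, 6.25%, 0%, 18.8% and 25%, beside 11.3%, 16%, 1.24%, 14.7% and 23.1% of all genes. In HEK293 cells the count was 4 for S9.6, 5 for RNH1, 1 for FLAG-MCM8 and 2 for IgG, beside 30.1%, 24.6%, 12% and 5.59%. The TIMP genes, inhibitors of metalloproteases, had 2 of 4 in shDdx5 (Timp1 and Timp2; 23.1% of all genes) and 0 of 4 in each of the other 8 lists of both cell types. Of 11 fibroblast marker genes Vim, which encodes vimentin, had a 5′ peak in all 4 S9.6 MEF lists; a peak list holds no expression level, so the labelled cell type could not be checked further.

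Promoters of matrix genes with a 5′ peak in some antibody list had a median CpG content, observed over expected in the 500 bases on either side of the 5′ end, of 0.528 in mouse (14 genes) and 0.741 in human (12 genes). Matrix genes without one had 0.465 (60 genes) and 0.60 (63 genes). Over all protein-coding genes the median was 0.583 in mouse and 0.688 in human, and over all genes with a 5′ peak 0.763 and 0.774. In both species the matrix genes with a peak were thus above those without and below all genes with a peak. The 74 mouse genes as a whole had a median of 0.483, below that of all protein-coding genes.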

How the data were processed

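The authors aligned trimmed reads to mm10 (MEFs) and hg38 (HEK293) with bowtie2 2.2.4 and called peaks per library with MACS2 (2.2.7.1 in the study's methods, 2.1.2 in the submitters' processing notes). The no-antibody library was not used as input, and use of IgG as input is not given in the sources used here. The deposited lists give for each peak a fold enrichment (a ratio), the −log10 of its p-value and q-value, and a summit offset. The deposited score was not used. The numbers in the names of HEK293 peaks are not consecutive: 9.92% to 13.7% of the numbers up to the highest are absent from the lists analysed here, by a rule not given in the sources used here, so a missing HEK293 peak may be one of these.

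Genes and starts came from GENCODE M21 and 44. Peaks on autosomes, X and Y were assigned by midpoint within 1 kb of a start, or by at least 1 bp over the gene, with Python 3.11.15, numpy 2.4.6, pandas 2.3.3 and scipy 1.17.1. Shares have 95% Wilson intervals, differences intervals built from these, and ratios Poisson intervals. Pileups were solved from fold and p. Lowest background divided by shortest peak gave relative depth, from 720 (no antibody) to 11050 (RNH1) fragments per Mb. Assignment was checked on 200 planted promoter and 200 planted body peaks per species, of which all 200 were found, and pileups on 2000 simulated peaks.

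The genes and lists were chosen with earlier results of these data known. Genes named in the text had a promoter peak in at least 3 of 4 MEF S9.6 lists, in all of FLAG-MCM8, S9.6 and RNH1, in a control list or in 1 list of a pair, had the most or strongest body peaks, or were among the 16 fibroblast matrix genes. The gene sets with a count beside them, COL18A1 in IgG, and the recurrent sites in Lama2 and Adamts9 were chosen after their values were seen. Alternatives changed the peak filter, the window, the position, the set of starts and the gene body rule.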

Additional observations from a re-analysis of the deposited data

Results flagged for a closer look

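At the promoters of the matrix genes KO minus WT was -5.41 percentage points and shDdx5 minus shControl was 4.05 points, from 5 and 9 genes and from 14 and 11 genes, beside 4.71 and 8.36 points over all genes. Both intervals included 0, each side rests on 1 library per group, and the difference between the pairs was not tested. The opposite signs did not hold with a q of 0.05, a p of 1e-05, a fold of 4 or a window of 3 kb, where KO minus WT was 1.35 points.

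Over gene bodies the ratio was 1.56 for KO over WT (0.959 to 2.52) and 0.811 for shDdx5 over shControl (0.543 to 1.21), and this difference was not tested either. Both intervals included 1, and the second ratio turned to 1.77 with a q of 0.05 and to 1.31 with a p of 1e-05, the side on which KO over WT lay.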

How the results depend on the processing

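No paired analysis was possible because each group held 1 library. Of 183 values under an alternative, 150 lay within the interval of the main value and 33 outside it, and the cause was not tested. Over gene bodies, a q of 0.05 or lower gave 3.25 for KO over WT and 1.77 for shDdx5 over shControl, a p of 1e-05 or lower gave 1.31 for the latter, and a fold of at least 4 gave 1.10 for FLAG-MCM8 over IgG. The share of matrix genes with a promoter peak moved as follows. A q of 0.05 or lower left 2.70% in WT, 0% with no antibody and 5.41% in shControl, and a p of 1e-05 or lower left the same shares there and 10.8% in shDdx5. A fold of at least 4 left 1.35% in WT, 2.70% in KO and in shControl, 0% with no antibody, 4.05% in shDdx5 and 5.33% in RNH1. A window of 500 bp gave 4.05% in WT, 2.70% in KO, 2.67% in IgG and 13.3% in FLAG-MCM8, and one of 3 kb gave 18.9% in KO. Starts of protein-coding transcripts alone gave 0% with no antibody, 4% in IgG and in RNH1, 13.3% in FLAG-MCM8 and 12% in HEK293 S9.6. The outermost 5′ end, an alternative chosen after seeing the data, gave 0% with no antibody, 5.41% in shControl, 1.33% in IgG and in RNH1, 8% in FLAG-MCM8 and 9.33% in HEK293 S9.6. KO minus WT turned positive, 1.35 points, with a q of 0.05, a p of 1e-05, a fold of 4 or a window of 3 kb. FLAG-MCM8 minus IgG stayed positive under the alternatives run, but its interval included 0 with a window of 3 kb (10.7 points) and at the outermost 5′ end (6.67 points). Pileups of 6 to 14 fragments at most MEF sites limit what a missing peak can say.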
